A study of Mus musculus with 12 samples.

Results

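The genes described here are 31 mouse genes of the PIWI-interacting RNA (piRNA) pathway and of germ granules, the ribonucleoprotein bodies of germ cells in which much of that pathway takes place. They were chosen by function, as every entry of both deposited count tables whose gene symbol was on a list of 31. The rule used no measured value, but the list was drawn up with earlier results of these data known. All 31 had an entry in both tables, out of 51826 entries in the table of mature sperm and 23502 in the table of testes. The list held 3 PIWI proteins, 3 RNA helicases, 10 Tudor domain proteins, 9 factors of piRNA biogenesis, maturation and loading, 4 factors of transcription and nuclear silencing and 2 other germ cell factors.

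piRNAs are small RNAs that guide PIWI proteins to transposon transcripts and to mRNAs in the male germ line. Long precursor transcripts are cut at the surface of mitochondria, loaded onto PIWI proteins, trimmed and methylated at their 3′ ends, and Tudor domain proteins hold the parts together by binding methylated arginines of the PIWI proteins. Most piRNAs of the postnatal testis are made in pachytene spermatocytes, and the granule there, the intermitochondrial cement, is followed in round spermatids by the chromatoid body.

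RNA-seq of poly(A) RNA was analysed from 12 libraries in 4 groups of 3. Mature sperm came from the cauda epididymis of P56 males, either WT or Xap5l KO, the latter from 1 global knockout line made with CRISPR/Cas9. Testes came from P16 males, either WT or Xap5 cKO, in which floxed Xap5 was deleted by Stra8-GFPCre, a knock-in that acts in germ cells from the spermatogonial stage on. Libraries of whole testes also held RNA of somatic cells. The labels call the control testes WT, and the study's text describes controls of the cKO mice as Xap5 fl/Y. Nothing in the labels says whether libraries of 1 group came from separate animals, so the p-values measure the spread between these libraries.

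Each library held between 32251198 and 52308452 counts, and the 31 genes took 0.0446% to 0.0522% of the counts of WT sperm, 0.065% to 0.115% of Xap5l KO sperm, 0.406% to 0.517% of WT testes and 0.144% to 0.172% of Xap5 cKO testes. Xap5l, listed as Fam50b, had 574, 440 and 419 counts in the WT and 18, 23 and 8 in the KO libraries. Xap5, listed as Fam50a, had 819, 811 and 988 counts in the WT and 673, 616 and 651 in the cKO libraries (log2 fold change -0.33, SE 0.126, adjusted p = 0.0495) in whole testes whose somatic cells keep the gene. One testis library stood apart from its group. WT replicate 3 correlated with the Xap5 cKO libraries at r = 0.952 to 0.956 over log2 CPM, against 0.924 to 0.930 for the other WT libraries. It was the lowest WT library for 24 of the 31 genes, at a median of 83.3% of the mean of the other two, so the counts of calls, the fold changes and the tests of the 31 genes were also computed without it. The values of the other lists, the levels per length and the correlations were not. In sperm, WT replicate 1 correlated with the Xap5l KO libraries at r = 0.960 to 0.970, against 0.939 to 0.959 for the other WT libraries.

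The 31 genes lay on 17 chromosomes of GRCm38 and none on the X. Promoter windows of 300 bases, with 250 bases before a RefSeq start site and 50 from it on, were held for 25 of the 31, some with several start sites, in 36 windows of GRCm38.p6. The windows of the following 4 genes are shown because Piwil1 had the largest fall in testes, Gtsf1 and Mael fell in testes and rose in sperm, and Dnmt3l was the gene that changed in sperm and did not pass the test in testes. All are written 5′ to 3′ along the gene. Capitals mark matches of 3 motifs searched on both strands, CCCCGCCC, AACTGNC (a core of the sites of MYB factors) and GTTNCC (a core of the X-box bound by RFX factors). CCCCGCCC is common to the binding motifs that the study gives for Xap5 and Xap5l.
Piwil1, chr5:128735996-128736295, plus strand, at a start site inside the annotated span of the gene: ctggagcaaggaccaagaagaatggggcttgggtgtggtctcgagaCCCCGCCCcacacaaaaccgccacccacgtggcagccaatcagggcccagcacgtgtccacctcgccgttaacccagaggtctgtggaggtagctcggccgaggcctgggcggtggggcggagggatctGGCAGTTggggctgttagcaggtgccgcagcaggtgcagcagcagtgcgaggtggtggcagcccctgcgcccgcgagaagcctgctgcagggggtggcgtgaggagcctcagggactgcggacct
Gtsf1, chr15:103430378-103430677, minus strand: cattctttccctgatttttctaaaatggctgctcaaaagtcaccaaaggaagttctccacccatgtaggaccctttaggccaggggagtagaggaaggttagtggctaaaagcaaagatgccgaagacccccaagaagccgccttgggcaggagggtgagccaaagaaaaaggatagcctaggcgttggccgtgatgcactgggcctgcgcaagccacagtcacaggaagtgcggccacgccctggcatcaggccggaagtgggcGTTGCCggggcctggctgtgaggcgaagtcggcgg
Dnmt3l, chr10:78049592-78049891, plus strand, 1 of its 3 windows: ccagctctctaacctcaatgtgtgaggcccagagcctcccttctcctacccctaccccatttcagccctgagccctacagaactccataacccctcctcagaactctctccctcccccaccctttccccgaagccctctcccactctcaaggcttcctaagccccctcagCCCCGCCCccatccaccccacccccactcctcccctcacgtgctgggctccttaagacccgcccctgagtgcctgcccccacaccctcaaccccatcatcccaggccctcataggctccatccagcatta
Mael, chr1:166238695-166238994, minus strand: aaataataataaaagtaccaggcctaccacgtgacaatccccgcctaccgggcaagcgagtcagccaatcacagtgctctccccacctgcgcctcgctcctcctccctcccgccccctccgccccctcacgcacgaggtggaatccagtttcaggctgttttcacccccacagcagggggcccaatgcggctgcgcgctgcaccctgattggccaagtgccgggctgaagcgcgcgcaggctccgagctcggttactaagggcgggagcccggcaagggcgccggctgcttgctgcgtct

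The Piwil1 window held CCCCGCCC at position -204 and the reverse complement of the MYB core at position -75, with the start site as position 0. The Gtsf1 window held the X-box core at position 15, and the Mael window held none of the 3. The windows of Ddx4 and Ddx25, which also fell in testes and rose in sperm, are not shown and held none of the 3. The Dnmt3l window shown held CCCCGCCC at position -80, at a start site inside the annotated span of the gene. The Dnmt3l window nearest the 5′ end of the gene, from base 78042037, held no CCCCGCCC and had the X-box core at positions -225, -195 and -12. Its window from base 78055085 held none of the 3 motifs. CCCCGCCC was in 5 of the 36 windows of the 31 genes, or 13.9%, against 17.6% of 32851 windows of all genes, and the 5 genes were Dnmt3l, Henmt1, Mov10l1, Piwil1 and Tdrd7. The MYB core was in 7 windows, or 19.4%, against 12.8% of all windows, in Fkbp6, Piwil1, Stk31, Tdrd7 and Tdrkh. The X-box core was in 11 windows, or 30.6%, against 45.3% of all. Matches of different motifs shared no bases in the windows of these genes. A match is a run of letters and not a binding site, and windows of 1 gene can overlap.

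The comparison of Xap5 cKO with WT testes asks how these genes stand at P16 when Xap5 is deleted in germ cells. The PIWI gene of pachytene spermatocytes, Piwil1, and the chromatoid body gene Tdrd6 fell 78.5-fold and 60.7-fold, the helicase genes Ddx4 and Ddx25 and the Tudor genes Tdrd1, Tdrd5 and Tdrd9 fell between 4.52-fold and 6.71-fold, and most of the rest fell by less. Of 31 genes tested, 28 fell at an adjusted p under 0.05, against 28.1% of all 16821 genes tested, and 21 fell by more than 2-fold, against 10.9% of all genes. None rose, by edgeR at an adjusted or an unadjusted p under 0.05 or by DESeq2, where 25% of all genes rose and 4.15% rose by more than 2-fold. The median log2 fold change of the 31 was -1.52, against -0.01 for all genes. The groups did not overlap for 29 of the 31, against 62.3% of all genes. Without WT replicate 3 the numbers lower were the same, 28 and 21. In RNA of whole testes, fewer cells of a type and less RNA per cell cannot be told apart. By histology, the study saw vacuolated tubules and no pachytene spermatocytes in Xap5 cKO testes from P16 on.

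**Figure D1:**
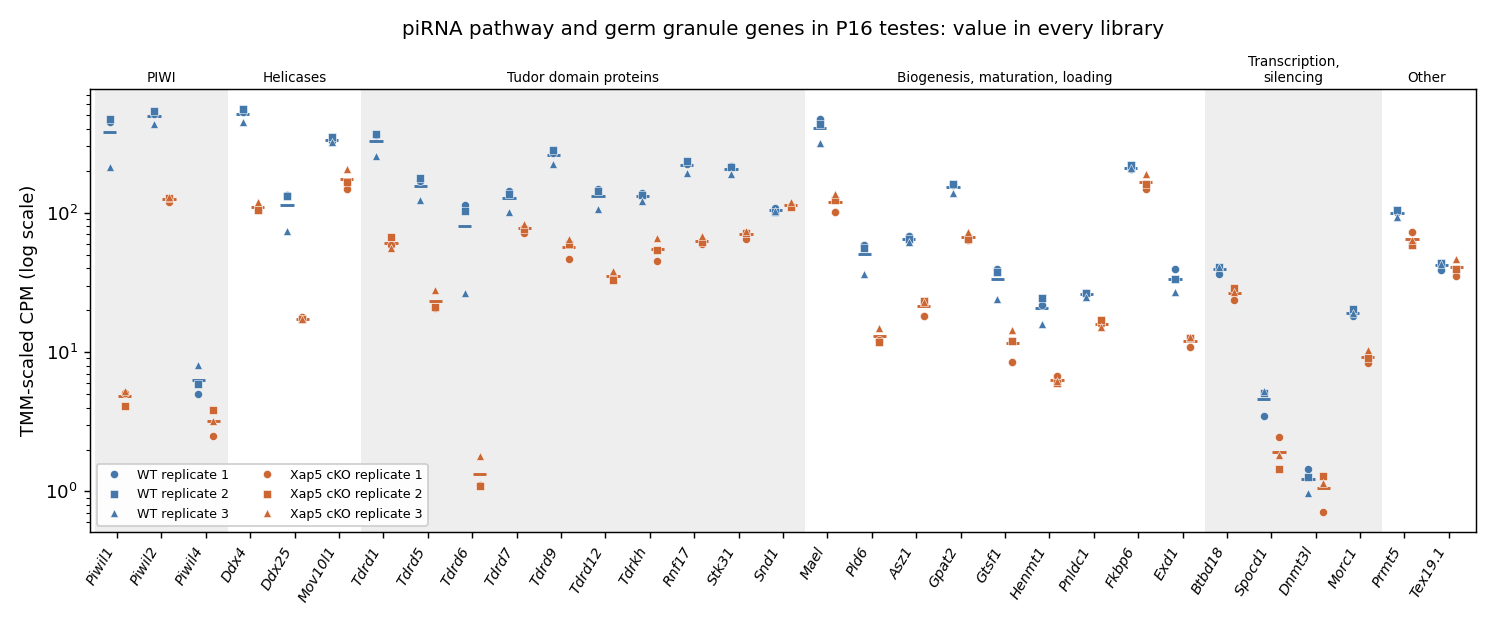
Level of each gene in the 6 libraries of P16 testes, in CPM scaled by TMM on a log axis, with WT in blue and Xap5 cKO in orange, symbols for the replicates and a bar at the mean of each group; genes are ordered by role. The WT and Xap5 cKO libraries did not overlap for 29 of the 31 genes, and WT replicate 3 (blue triangles) lay lowest of the WT libraries for 24.

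Among the PIWI genes, Piwil1 (MIWI), which binds pachytene piRNAs, spans 128702524 to 128755474 on chromosome 5. Its RNA had 15140, 17286 and 7653 counts in the WT and 165, 141 and 172 in the cKO libraries. Its log2 fold change was -6.30 (SE 0.330, adjusted p = 8.8e-06, from the quasi-likelihood test of edgeR, adjusted by Benjamini-Hochberg, as for all adjusted p-values here). The lowest WT library, replicate 3 at 46% of the mean CPM of the other WT libraries, and the highest cKO library were thus 7653 and 172 counts. Piwil2 (MILI), which is present from fetal germ cells to spermatids, had 17175, 19605 and 15511 counts in the WT and 3833, 4357 and 4302 in the cKO libraries (log2 fold change -1.97, SE 0.0871, adjusted p = 6.8e-06). Piwil4 (MIWI2), the nuclear PIWI protein of fetal germ cells, was low, with 168, 215 and 290 counts in the WT and 81, 132 and 105 in the cKO libraries. Its log2 fold change was -0.98 (SE 0.269, adjusted p = 0.0128), under 2-fold. It passed 2-fold without WT replicate 1 (-1.13), WT replicate 2 (-1.03) or Xap5 cKO replicate 2 (-1.14). Piwil4 was also the gene for which WT replicate 3 lay furthest above the other WT libraries, at 148% of their mean, and its exons share 137 bases with the opposite-strand gene Gm10706.

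All 3 helicases fell. Ddx4 (MVH, the germ granule helicase that marks germ cells) had 17859, 20130 and 16253 counts in the WT and 3420, 3592 and 3921 in the cKO libraries (log2 fold change -2.21, SE 0.0884, adjusted p = 6.8e-06). Ddx25 (GRTH, a helicase of the chromatoid body) had 4509, 4820 and 2656 counts in the WT and 572, 586 and 568 in the cKO libraries (log2 fold change -2.70, SE 0.211, adjusted p = 2.29e-05). The Xap5 cKO libraries of Ddx25 were nearly equal, and WT replicate 3 held 55.4% of the mean CPM of the other WT libraries. Mov10l1, which feeds precursor transcripts to cleavage, had 11050, 12675 and 11505 counts in the WT and 4768, 5704 and 6801 in the cKO libraries. It fell by less, with a log2 fold change of -0.93 (SE 0.109, adjusted p = 0.000127), and passed 2-fold only without Xap5 cKO replicate 3 (-1.08).

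Of the 10 Tudor domain genes, 9 fell and 8 of these by more than 2-fold. Tdrd6, a large Tudor protein of the chromatoid body on chromosome 17 (43615335 to 43630299), had 3817, 3752 and 956 counts in the WT and 36, 37 and 59 in the cKO libraries. Its log2 fold change of -5.92 (SE 0.576, adjusted p = 5.31e-05) had the largest error of the genes that fell, and WT replicate 3 held 24.5% of the mean CPM of the other WT libraries. Without that library the log2 fold change was -6.34. Tdrd5, needed for granule assembly and pachytene piRNAs, had 5645, 6472 and 4469 counts in the WT and 669, 720 and 924 in the cKO libraries (log2 fold change -2.75, SE 0.163, adjusted p = 1e-05). Tdrd1, a partner of MILI, had 12233, 13303 and 9268 counts in the WT and 1899, 2297 and 1835 in the cKO libraries (log2 fold change -2.44, SE 0.139, adjusted p = 9.46e-06). These Tudor genes fell further than the median of the 31.

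Tdrd9, a Tudor protein with a helicase domain, had 8969, 10277 and 8094 counts in the WT and 1502, 2048 and 2121 in the cKO libraries (log2 fold change -2.18, SE 0.129, adjusted p = 1e-05). Tdrd12, its relative, had 4951, 5196 and 3816 against 1111, 1130 and 1268 counts (log2 fold change -1.90, SE 0.129, adjusted p = 1.39e-05). Rnf17, a Tudor and RING protein, had 7559, 8643 and 6993 against 1910, 2097 and 2240 counts (log2 fold change -1.80, SE 0.0898, adjusted p = 8.8e-06). In each of these genes every WT library held more than 3 times the counts of any Xap5 cKO library. Stk31, a Tudor protein with a kinase-like domain, had 7268, 7706 and 6861 against 2087, 2445 and 2454 counts (log2 fold change -1.55, SE 0.0776, adjusted p = 8.8e-06). Tdrkh, which docks PIWI proteins at mitochondria for trimming, had 4653, 4913 and 4404 against 1446, 1827 and 2169 counts (log2 fold change -1.27, SE 0.128, adjusted p = 6.31e-05). Of its exons, 2255 bases overlap Oaz3 on the opposite strand, and strand use in the counting is not given in the sources used here. Tdrd7, which shapes the chromatoid body, fell by under 2-fold, with 4816, 4968 and 3624 against 2316, 2610 and 2741 counts and a log2 fold change of -0.71 (SE 0.127, adjusted p = 0.0013). Snd1, a Tudor and nuclease protein made in most tissues, had 3633, 3706 and 3723 against 3603, 3732 and 3937 counts. It did not pass the test, with a log2 fold change of 0.12 (95% interval -0.02 to 0.27, adjusted p = 0.137), and its interval excludes a 2-fold change in either direction.

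All 9 genes of biogenesis, maturation and loading fell, and 7 of them by more than 2-fold. Mael, an HMG box protein of germ granules that takes part in transposon silencing and precursor processing, lies on chromosome 1 (166201201 to 166238747). Its RNA had 15910, 15738 and 11321 counts in the WT and 3240, 4231 and 4496 in the cKO libraries (log2 fold change -1.75, SE 0.157, adjusted p = 3.64e-05). Pld6, the mitochondrial endonuclease that cuts precursors, had 1984, 2044 and 1299 against 392, 404 and 493 counts (log2 fold change -1.95, SE 0.192, adjusted p = 5.65e-05). Other proteins of the mitochondrial surface fell as well. Asz1 (GASZ), a scaffold there, had 2272, 2362 and 2228 against 589, 788 and 755 counts (log2 fold change -1.59, SE 0.112, adjusted p = 1.53e-05). Gpat2, an outer membrane protein, had 5302, 5866 and 4953 against 2042, 2203 and 2394 counts (log2 fold change -1.18, SE 0.0851, adjusted p = 1.7e-05). Exd1, a partner of TDRD12, had 1337, 1219 and 975 against 352, 430 and 420 counts (log2 fold change -1.47, SE 0.159, adjusted p = 8.68e-05).

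The last steps of piRNA maturation were divided in size of change. Henmt1, which methylates the 3′ end, had 730, 892 and 574 against 217, 203 and 205 counts (log2 fold change -1.71, SE 0.188, adjusted p = 9.37e-05). Pnldc1, the exonuclease that trims it, had 898, 969 and 900 against 516, 579 and 496 counts and fell by under 2-fold, with a log2 fold change of -0.70 (SE 0.114, adjusted p = 0.000775). Exons of Henmt1 share 392 bases with Gm9857 and those of Pnldc1 144 bases with AL589878.1, both on the opposite strand. Gtsf1, a zinc finger cofactor of PIWI cleavage on chromosome 15 (103402405 to 103430470), had 1325, 1364 and 860 against 273, 410 and 477 counts (log2 fold change -1.52, SE 0.238, adjusted p = 0.00063). Fkbp6, a co-chaperone of PIWI loading, fell least of the genes that passed the test. Its counts were 6911, 7989 and 7482 in the WT and 4779, 5447 and 6241 in the cKO libraries (log2 fold change -0.35, SE 0.0881, adjusted p = 0.00914). Fkbp6 was the 1 gene of the 28 that missed the threshold when a library was left out, at adjusted p = 0.051 without Xap5 cKO replicate 1 and 0.0517 without Xap5 cKO replicate 2.

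The factors of transcription and nuclear silencing included Dnmt3l, Spocd1 and Morc1, which were among the 4 lowest of the 31 per length in WT testes. Spocd1, which acts with MIWI2 in DNA methylation of transposons, had 117, 186 and 189 counts in the WT and 79, 49 and 60 in the cKO libraries (log2 fold change -1.28, SE 0.302, adjusted p = 0.00637). A second entry, Spocd1-2, was kept apart and did not pass the test, with 24, 51 and 31 against 26, 11 and 7 counts (log2 fold change -1.15, adjusted p = 0.147). Morc1, a transposon silencing ATPase, had 608, 740 and 690 against 268, 309 and 339 counts (log2 fold change -1.06, SE 0.147, adjusted p = 0.000327). It was the called gene nearest to 2-fold, and lay under it without Xap5 cKO replicate 1 (-0.98). Btbd18, needed for transcription of pachytene piRNA clusters, had 1227, 1485 and 1459 against 764, 975 and 895 counts (log2 fold change -0.57, SE 0.107, adjusted p = 0.00184). Dnmt3l, the cofactor of de novo DNA methylation on chromosome 10 (78041947 to 78063622), had 49, 46 and 35 against 23, 44 and 38 counts. It did not pass the test (log2 fold change -0.22, adjusted p = 0.679), and its interval of -1.16 to 0.72 takes in a 2-fold fall.

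Prmt5, the methyltransferase that marks PIWI arginines, had 3415, 3833 and 3347 counts in the WT and 2340, 1994 and 2115 in the cKO libraries (log2 fold change -0.62, SE 0.0936, adjusted p = 0.000538). Tex19.1, a germ cell protein linked to transposon control, had 1310, 1594 and 1547 against 1137, 1353 and 1545 counts. It did not pass the test, with a log2 fold change of -0.04 (95% interval -0.31 to 0.22, adjusted p = 0.778). Tex19.1 and Snd1 were thus the 2 genes whose intervals lay within 2-fold in both directions and took in no change.

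Levels of different genes were compared per length, as CPM per kilobase of merged exons. In WT testes Mael was highest, at 235 ± 47.5 (SD, n = 3), followed by Ddx4 at 170 ± 17.6 and Fkbp6 at 120 ± 4.1. Piwil2 at 93.3 ± 10.5 and Piwil1 at 87 ± 33.2 came next and lay within their spread, and Dnmt3l was lowest, at 0.412 ± 0.0817. In Xap5 cKO testes Fkbp6 had 94.7 CPM per kilobase and Mael 69.5, while Piwil1 had 1.11 and Tdrd6 0.189. By level per length in WT testes, Piwil1, with the largest fall, ranked 5 among these genes, and Tdrd6, with the next largest, ranked 22.

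Other genes of the pathway and of small RNA control were counted as a list of 30. Of these, 28 were tested in testes, with a median log2 fold change of -0.32. At an adjusted p under 0.05, 15 of the 28 fell, against 28.1% of all genes tested. By more than 2-fold, 5 of the 28 fell, against 10.9% of all genes. Adad2, a germ cell RNA-binding protein, had the largest fall, with 2677, 3394 and 2063 against 386, 456 and 574 counts and a log2 fold change of -2.43 (SE 0.199, adjusted p = 2.65e-05). Tcfl5, a transcription factor that activates piRNA pathway genes, had a log2 fold change of -1.69 (SE 0.185, adjusted p = 9.15e-05). Mybl1 (A-MYB), the other activator listed, fell by under 2-fold, with 4569, 4750 and 4082 against 2947, 2949 and 3001 counts and a log2 fold change of -0.50 (SE 0.0791, adjusted p = 0.000718). The other 3 that fell by more than 2-fold were Tex15, a silencing partner of MIWI2 (log2 fold change -1.35), Uhrf1, a cofactor of DNA methylation (-1.40), and Kif17, a motor found in the chromatoid body (-1.43). Dnmt3a and Mov10 rose, by 0.32 and 0.40 on the log2 scale, where 25% of all genes rose.

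Markers of germ cell stages and of somatic cells moved in the same libraries. A list is said to be led by its gene with the highest level, whether or not that gene changed. All 13 genes of leptotene and zygotene spermatocytes fell, with a median log2 fold change of -1.31 and a summed level of 2673 to 3186 CPM in WT and 1234 to 1531 in Xap5 cKO testes, led by Sycp2. Of 9 tested genes of pachytene spermatocytes, 8 fell, with a median of -3.33 and a sum of 916 to 1856 against 150 to 238 CPM, led by Hspa2. Genes of spermatogonia had a median of -0.65, with 11 of 15 lower and 3 higher and sums of 1045 to 1130 against 767 to 834 CPM, led by Uchl1. Sertoli cell genes, led by Clu, rose in 11 of 12 cases, from sums of 5770 to 6251 to sums of 10070 to 11610 CPM, and 4 of 7 Leydig cell genes, led by Hsd3b6, rose (268 to 456 against 484 to 930 CPM). For myoid cells 3 of 5 genes rose (505 to 661 against 731 to 795 CPM, led by Acta2), and for leukocytes 7 of 9 tested (84.3 to 117 against 172 to 236 CPM, led by Lyz2). Sums of round spermatid markers were at most 12.6 CPM and those of elongating spermatid markers at most 6.4 CPM in any testis library, led by Spaca1 and Gapdhs, with Prm2 at 0 throughout. Of the 31 genes, 25 lay below the median change of the spermatogonial markers, 17 below that of the leptotene and zygotene markers, and Piwil1 and Tdrd6 alone below that of the pachytene markers. The part of cell composition in the falls was not tested. Fam50b (Xap5l) itself had 532, 539 and 197 counts in the WT and 6, 0 and 7 in the cKO libraries.

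The comparison of Xap5l KO with WT sperm asks how RNAs of these genes stand in mature sperm, which make little or no new RNA. Of 31 genes, 30 passed the filter on low counts. The chromatoid body genes Tdrd6, Ddx25 and Ddx4, the piRNA factors Mael, Gtsf1 and Rnf17, and Dnmt3l rose between 2.19-fold and 3.17-fold, and Tdrd7 rose by under 2-fold. The 7 genes that rose by more than 2-fold compare with 7.59% of all 20945 genes tested, and the 8 that rose at an adjusted p under 0.05 with 9.02%. None fell at an adjusted p under 0.05 by edgeR or DESeq2, where 3.07% of all genes fell and 1.27% fell by more than 2-fold; at an unadjusted p under 0.05, 3 were lower by edgeR (Piwil1, Piwil4 and Snd1). The median log2 fold change of the 30 was 0.17, against -0.08 for all genes, with 17 above and 13 below 0. The groups did not overlap for 15 of them, against 38.3% of all genes. The 7 calls depended on single libraries: none remained when WT replicate 2, WT replicate 3 or KO replicate 2 was left out, 2 (Gtsf1 and Tdrd6) without KO replicate 1, and 7 without KO replicate 3 or WT replicate 1. The log2 fold changes of the 7 stayed between 0.95 and 1.87 in all these fits.

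**Figure D2:**
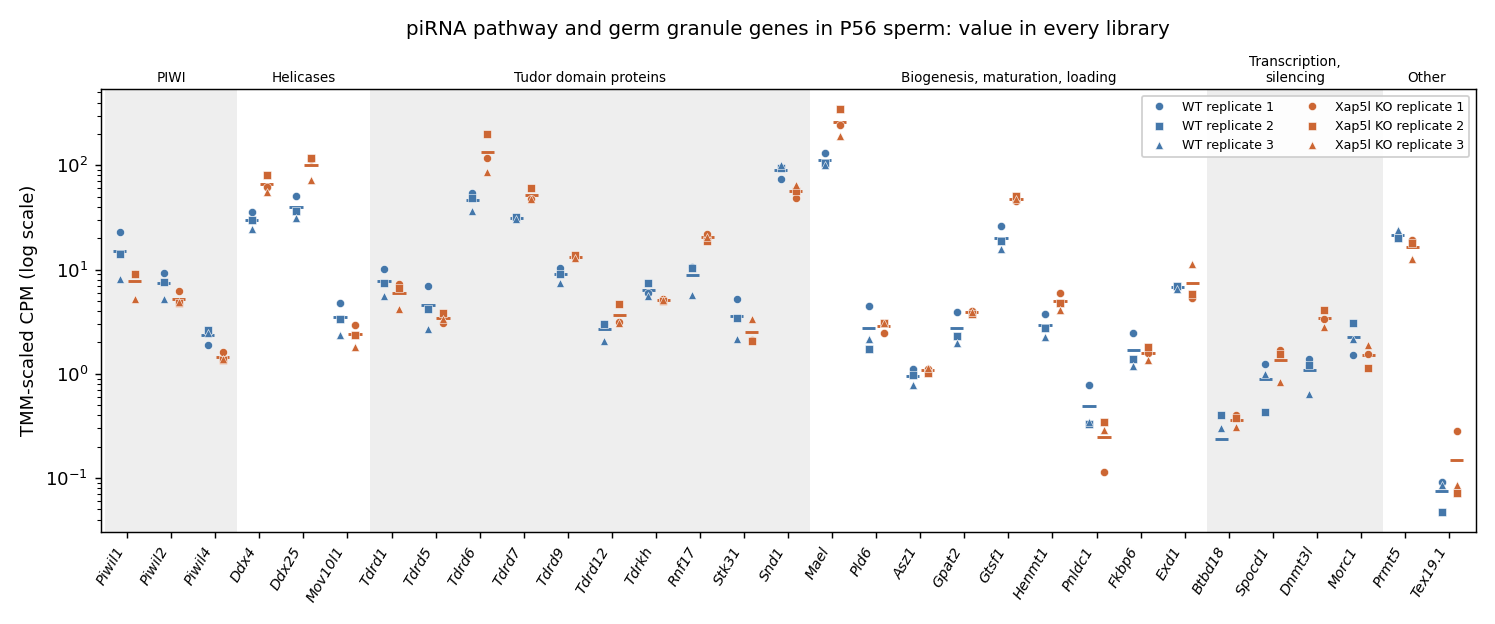
Level of each gene in the 6 libraries of P56 sperm, in CPM scaled by TMM on a log axis, with WT in blue and Xap5l KO in orange, symbols for the replicates and a bar at the mean of each group; a value of 0 (Btbd18 in WT replicate 1) is not drawn. The groups did not overlap for 15 of the 30 genes tested, against 38.3% of all genes. Tdrd6, Ddx25, Ddx4, Mael, Gtsf1, Rnf17 and Dnmt3l had every Xap5l KO library above every WT library, as did Tdrd7, Tdrd9, Tdrd12 and Henmt1. Snd1, Prmt5, Tdrkh and Piwil4 had every Xap5l KO library below every WT library. Tex19.1 had at most 10 counts in a library.

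None of the PIWI genes passed the test in sperm. Piwil1 had 765, 600 and 375 counts in the WT and 316, 499 and 305 in the KO libraries (log2 fold change -0.97, SE 0.370, adjusted p = 0.104), and its groups overlapped. Piwil2 had 305, 320 and 243 against 216, 265 and 285 counts (log2 fold change -0.48, SE 0.258, adjusted p = 0.217). Piwil4 had 63, 112 and 114 against 57, 75 and 80 counts (log2 fold change -0.70, SE 0.282, adjusted p = 0.12). All 3 values were negative, and the 95% interval of each of them reached past a 2-fold fall.

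Because the Xap5l KO libraries were deeper, levels in CPM stand beside the counts of the genes that rose. Tdrd6 had 1798, 2040 and 1694 counts in the WT and 4165, 11026 and 5086 in the KO libraries, or 46.5 ± 9.14 and 135 ± 57.6 CPM. Its log2 fold change was 1.54 (SE 0.319, adjusted p = 0.0199). In CPM, Xap5l KO replicate 2 was the highest library of all genes that rose (Tdrd6, Ddx25, Ddx4, Mael, Gtsf1, Tdrd7 and Dnmt3l) except Rnf17. Ddx25 had 1668, 1549 and 1463 counts in the WT and 3999, 6488 and 4220 in the KO libraries, or 39.6 ± 9.82 and 101 ± 25 CPM (log2 fold change 1.35, SE 0.270, adjusted p = 0.0189). Ddx4 had 1187, 1255 and 1127 against 2175, 4462 and 3202 counts, or 30 ± 5.84 and 65.8 ± 13.2 CPM (log2 fold change 1.13, SE 0.235, adjusted p = 0.0201). The third helicase, Mov10l1, did not pass the test, with 159, 141 and 109 against 104, 132 and 106 counts and a log2 fold change of -0.55 (adjusted p = 0.257).

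Mael had 4327, 4472 and 4664 counts in the WT and 8611, 19081 and 11209 in the KO libraries, or 113 ± 16.3 and 261 ± 77.1 CPM (log2 fold change 1.21, SE 0.270, adjusted p = 0.0247). It was also the highest gene per length in WT sperm, at 65 ± 9.4 CPM per kilobase (SD, n = 3), followed by Gtsf1 at 14.6 ± 3.79, Ddx4 at 9.96 ± 1.94 and Snd1 at 9.2 ± 1.46. Gtsf1 had 858, 798 and 728 against 1588, 2814 and 2788 counts, or 20.2 ± 5.27 and 48 ± 2.74 CPM (log2 fold change 1.25, SE 0.229, adjusted p = 0.0162), the smallest adjusted p of the 30 genes tested. Rnf17 had 352, 438 and 263 against 773, 1041 and 1204 counts, or 8.91 ± 2.81 and 20.5 ± 1.64 CPM (log2 fold change 1.20, SE 0.262, adjusted p = 0.0227). Dnmt3l, a rare RNA in these libraries, had the largest change, with 46, 51 and 30 against 118, 226 and 164 counts, or 1.08 ± 0.39 and 3.42 ± 0.634 CPM (log2 fold change 1.66, SE 0.346, adjusted p = 0.0201). Its exons share 67 bases with Aire on the opposite strand. Tdrd7 had 1036, 1359 and 1425 against 1649, 3374 and 2764 counts and a log2 fold change of 0.72 (SE 0.197, adjusted p = 0.0441). That call was near the threshold, at adjusted p = 0.0511 without the filter on low counts, 0.173 with library size alone as the scale, 0.0799 with the replicate number as a block, and between 0.0189 and 0.177 with 1 library left out.

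The other 22 genes tested in sperm did not pass the test, and for 6 of them the 95% interval lay within 2-fold. Among Tudor genes, Tdrd1 (-0.36), Tdrd5 (-0.43), Tdrkh (-0.32), Stk31 (-0.51) and Snd1 (-0.66, adjusted p = 0.0748) had negative log2 fold changes, and Tdrd9 (0.56, adjusted p = 0.0943) and Tdrd12 (0.44) positive ones. The overlap of Tdrkh exons with Oaz3, 2255 bases on the opposite strand, applies here too. Oaz3 is on the elongating spermatid list, which summed to at least 51700 CPM in every sperm library, while Tdrkh had 1.03 CPM per kilobase in WT sperm. The part of Oaz3 reads in the Tdrkh counts was not tested. Snd1 passed the test only without WT replicate 1, as the 1 gene then lower (adjusted p = 0.0426). In biogenesis and maturation the values were 0.77 for Henmt1 (adjusted p = 0.0901, and 0.0427 without KO replicate 3), 0.51 for Gpat2, 0.19 for Asz1, 0.15 for Exd1, 0.06 for Pld6, -0.08 for Fkbp6 and -0.90 for Pnldc1. The remaining ones were 0.61 for Spocd1, 0.56 for Btbd18, -0.57 for Morc1 and -0.38 for Prmt5. Btbd18 (0, 17 and 14 against 14, 21 and 18 counts) and Pnldc1 (26, 14 and 16 against 4, 19 and 17 counts) had the lowest counts of the genes tested. Tex19.1, with 3, 2 and 4 against 10, 4 and 5 counts, was not tested.

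Of the 30 other pathway genes, 29 were tested in sperm, with a median log2 fold change of -0.17 over the list. Of these, 4 rose by more than 2-fold, against 7.59% of all genes tested. Tex15 had 308, 323 and 311 against 866, 1370 and 778 counts (log2 fold change 1.40, SE 0.276, adjusted p = 0.0182). Uhrf1 had 232, 284 and 372 against 649, 1069 and 648 counts (log2 fold change 1.16, adjusted p = 0.0217), Kif17 8766, 6601 and 7626 against 17732, 21965 and 22264 (1.13, adjusted p = 0.0345), and Gtsf1l, a relative of Gtsf1, 1651, 1267 and 1510 against 3879, 4448 and 2992 (1.10, adjusted p = 0.0487). Tex15, Uhrf1 and Kif17 were thus called higher in Xap5l KO sperm and lower in Xap5 cKO testes, and Gtsf1l had no counts in any testis library. The calls of these other pathway genes were not recomputed with a library left out, unlike those of the main list, which in sperm depended on single libraries. Mybl1 and Tcfl5 did not pass the test in sperm, with log2 fold changes of -0.17 and 0.80.

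Markers of earlier germ cells and of other cells moved in the sperm libraries too. Of 8 round spermatid genes, led by Tssk1, 7 rose by more than 2-fold, with a median log2 fold change of 1.53 and sums of 81.2 to 121 CPM in WT and 216 to 322 in Xap5l KO sperm. Of 10 pachytene genes, 5 rose (Acr, Clgn, Hist1h1t, Hspa2 and Ldhc), with a median of 0.91 over the list. Crisp2, the highest of that list, did not pass the test, and the list summed to 2583 to 4704 against 4549 to 6522 CPM. Of 11 tested leptotene and zygotene genes, led by Stag3, 3 rose (81.8 to 123 against 134 to 235 CPM). The 11 tested spermatogonial genes, led by Dmrtb1, had a median of -0.22 and sums of 160 to 228 against 209 to 409 CPM. Elongating spermatid genes, led by Smcp, had a median log2 fold change of 0.60 over 10 tested genes, of which Akap4 rose by more than 2-fold, and sums of 58110 to 142300 CPM in WT and 51700 to 92820 in Xap5l KO sperm; Smcp itself did not pass the test (-0.97 on the log2 scale, adjusted p = 0.267). Of 11 leukocyte genes, 3 (Laptm5, S100a9 and Cd14) were lower. Cd52, the highest of that list, did not pass the test, and the list summed to 4553 to 5167 against 2680 to 3194 CPM. Of 5 tested genes of epididymal epithelium, 1 was lower (5230 to 7287 against 3939 to 5276 CPM, led by Crisp1). Sertoli cell genes had a median log2 fold change of -0.57 over 10 tested genes, with 2 lower and 0 higher. Their sums, led by Clu, which did not pass the test, were 645 to 762 against 1053 to 1332 CPM. Which cells the Cd52 and Clu RNAs came from was not tested. Leydig and myoid cell genes, led by Insl3 and Acta2, summed to at most 35.9 and 12.6 CPM. Of the 30 genes, 28 lay below the median change of the round spermatid markers. The part of these cells and RNAs in the rises was not tested.

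**Figure D3:**
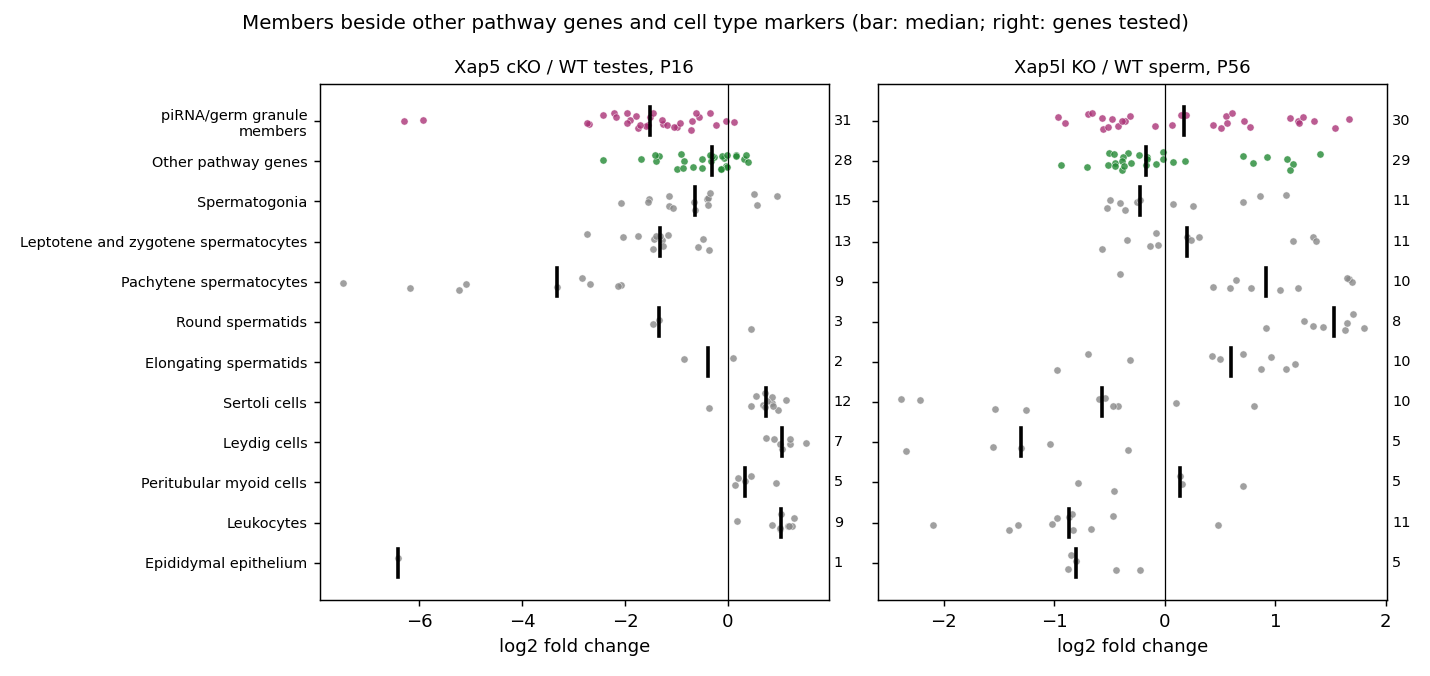
Log2 fold change of every tested gene by list, in testes (left) and sperm (right), each point a gene, the black bar the median of the list and the number at the right the genes tested. In testes the median of the 31 genes (-1.52) lay between those of the leptotene and zygotene (-1.31) and pachytene markers (-3.33), with the medians of the somatic lists above 0 except for epididymal epithelium, where 1 gene (Aqp9) was tested, and in sperm the round spermatid markers had the highest median (1.53) against 0.17 for the 30 genes tested.

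The 2 comparisons share no libraries and differ in tissue, age and gene deleted, so their values are given side by side. Of the 7 genes that rose by more than 2-fold in Xap5l KO sperm, 6 (Tdrd6, Ddx25, Gtsf1, Mael, Rnf17 and Ddx4) fell by more than 2-fold in Xap5 cKO testes. That is 85.7% of the genes higher in sperm and 28.6% of the 21 genes lower in testes. Of all genes tested in testes, 10.9% fell by more than 2-fold. The same overlap over all genes was not computed, so these shares do not set the listed genes apart from other genes. Dnmt3l was the exception. Of the other 23 genes tested in both, 15 fell by more than 2-fold in testes, and the median testis log2 fold changes were -1.80 for the 7 and -1.28 for the 23. Piwil1, with the largest fall in testes, was among the genes not passing the test in sperm. Over the 30 genes, the log2 fold changes in sperm and testes correlated at Pearson's r = -0.10 and Spearman's rho = -0.18, a description over genes, which are not replicates.

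**Figure D4:**
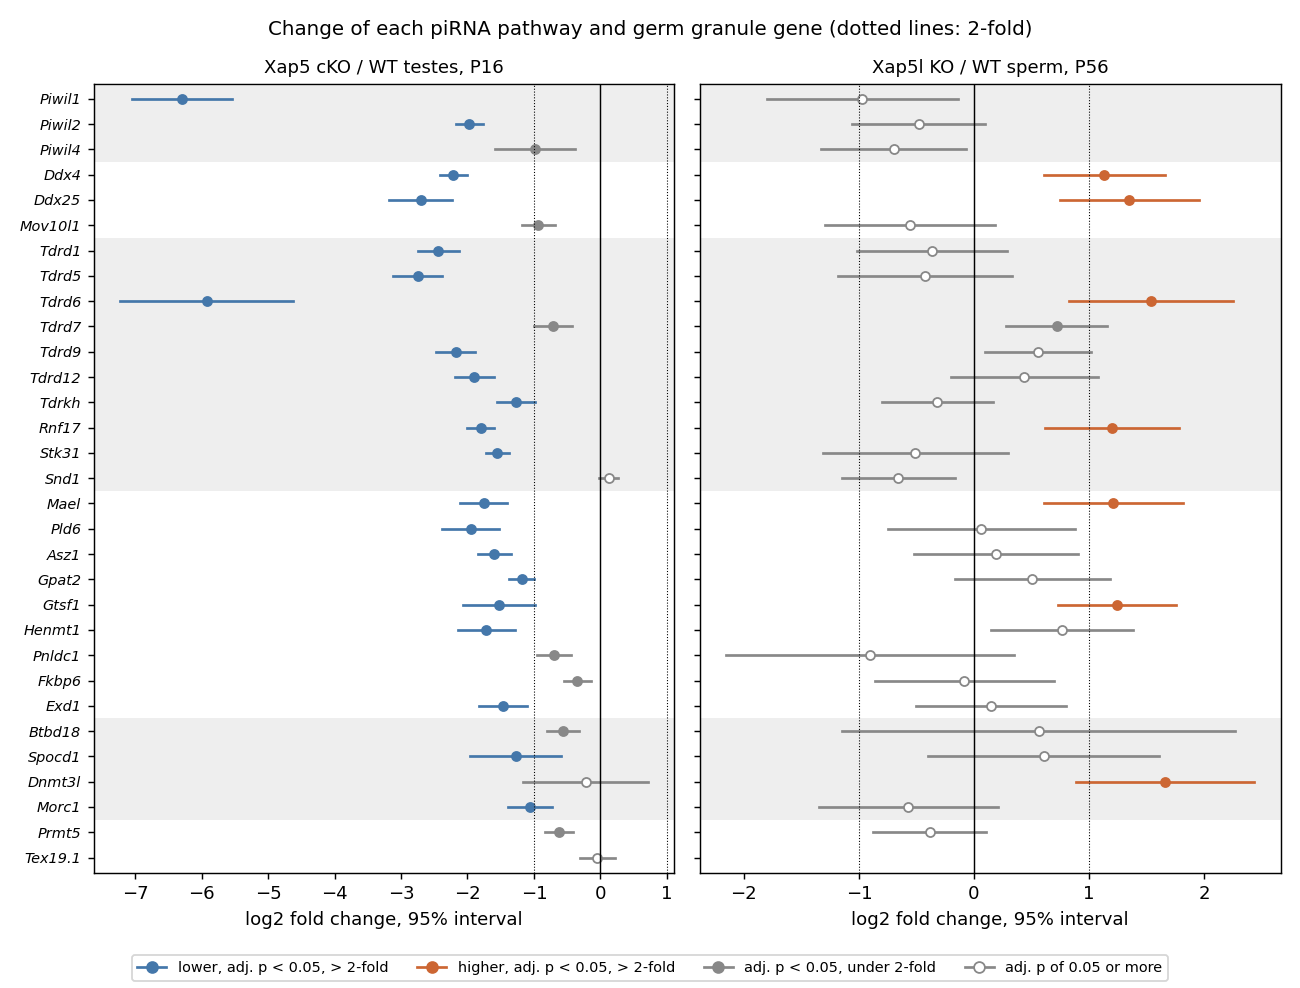
Log2 fold change of each gene with its 95% interval, Xap5 cKO over WT testes on the left and Xap5l KO over WT sperm on the right, on separate scales; blue is lower and orange higher at an adjusted p under 0.05 and over 2-fold, filled grey passes the test under 2-fold, and open grey does not pass it. In testes 21 genes are blue and none is orange, in sperm 7 are orange and none is blue, and Tex19.1 was not tested in sperm.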

How the data were processed

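The authors purified poly(A) RNA, prepared libraries with a NEBNext Ultra II kit, sequenced paired-end reads of 150 bp, and processed them, per the labels, with FastQC 0.11.2, Trimmomatic 0.36, HISAT2 2.1.0 on GRCm38 and DESeq2 1.12.4. The deposited values are raw counts, whole numbers for each gene, in separate tables for sperm and testes; the counting tool, strand use and treatment of multi-mapping reads are not given in the sources used here.

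Each table was fitted alone with edgeR 4.0.16 in R 4.3.3: filterByExpr, TMM, and the quasi-likelihood test with genotype as the only term and Benjamini-Hochberg adjustment over all genes tested. A gene passed the test at an adjusted p under 0.05 and was called at a fold change above 2 as well; rose and fell mean passing. SE and 95% intervals are of log2 fold changes, CPM values are TMM-scaled means ± SD, and lengths are merged GENCODE M21 exons. An exact permutation test of 1 gene over 3 and 3 libraries cannot go below p = 0.1. The tests were checked on simulated data. Promoters are from RefSeq; Piwil2, Tdrd6, Pnldc1, Spocd1, Rnf17 and Morc1 had no window.

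Every member was named, those called in either table, the PIWI genes and the highest per kilobase in full; other pathway genes were named where called, and of each marker list the gene with the highest level. Mybl1, Dnmt3a, Mov10 and Prm2 were named after their values were seen. Members and lists were chosen with earlier results of these data known. Alternatives were other filters, scalings (RLE, library size alone), DESeq2 1.42.0, a replicate block, an adjusted p under 0.01, summed entries, removal of mitochondrial and the 10 most abundant genes, and each library left out.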

Additional observations from a re-analysis of the deposited data

How the results depend on the processing

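In testes the median log2 fold change kept its sign under every alternative for which it was computed and with each library left out. It moved by less than the SD of the medians of the single Xap5 cKO libraries. The counts of genes lower stayed near those of the main fit, with 20 to 22 genes lower by more than 2-fold. In sperm, 7 genes were higher by more than 2-fold under every other filter, scaling and tool, but 0 at an adjusted p under 0.01, and 0 to 7 with 1 library left out; those higher at an adjusted p under 0.05 numbered 0 at the 0.01 threshold and 0 to 9 with 1 library left out, and those lower 0 to 1. Fewer libraries leave fewer degrees of freedom. The median in sperm, 0.17, was 0.25 without the filter, 0.20 with at least 10 counts in every library (which left 28 genes), 0.21 with RLE factors, 0.22 with library size alone or DESeq2, 0.25 without mitochondrial and top genes, and 0.081 to 0.29 with 1 library left out; the cause of these shifts was not tested. Signs turned only for genes that had not passed the test: with 1 library left out, in sperm Fkbp6 ranged from -0.29 to 0.28 (positive without WT replicate 1 or KO replicate 3, 0.095), Pld6 from -0.19 to 0.56 (negative without WT replicate 2 or WT replicate 3, -0.10) and Exd1 from -0.19 to 0.34 (negative without KO replicate 3), and in testes Tex19.1 ranged from -0.16 to 0.055 (positive without cKO replicate 1).

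Deviations of libraries with the same replicate number correlated at 0.17, -0.019 and -0.135 in sperm and at 8e-05, -0.0376 and -0.0452 in testes. For libraries with different numbers the values ran from -0.196 to 0.26 in sperm and from -0.0748 to 0.0992 in testes. With 3 libraries in a group, these values cannot decide whether the numbers pair the samples, and the labels do not say what a number shares. With the replicate number as a block, 7 genes were higher by more than 2-fold and 7 at an adjusted p under 0.05 in sperm (median 0.19), and in testes 21 were lower by more than 2-fold and 28 at an adjusted p under 0.05 (median -1.52); Tdrd7 in sperm was the 1 call it ended.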
